A study of Mus musculus with 20 samples.

Results

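Poly(ADP-ribose) polymerase (PARP) family genes and their partner Dtx3l were followed in bone marrow-derived macrophages (BMDMs) treated with fractions of airway fluid. The 9 genes were taken by name from the 78409 genes listed: Parp3, Parp8, Parp9, Parp10, Parp11, Parp12, Parp14, Dtx3l and Zc3hav1. Each was found once, and all 9 passed the filter on low values in every comparison. The BMDMs of all 5 groups were wild type, grown from bone marrow of female C57BL/6J mice and used on day 7 of culture. They received PBS, or an extracellular vesicle-enriched fraction (EVFx) or a protein-enriched fraction (ProteinFx) of bronchoalveolar lavage fluid. The fluid came from RNY1+/+ or RNY1-/- mice with ovalbumin-induced airway inflammation, so that the genotype is that of the fluid and not of the macrophages. RNY1-/- mice carry a CRISPR deletion of the gene of the small noncoding Y RNA RNY1, and mice of the study were 7 to 16 weeks old. EVFx joined size exclusion fractions 1 to 4 and was added at 35000000 particles per µL. ProteinFx joined fractions 9 to 20 and was added at 0.75 µg of protein per µL. The 2 doses are on different scales, and how long the cells were treated is not given in the sources used here. Each group had 4 libraries. Nothing states whether these came from separate pools of fluid, mice or wells, so p-values measure the spread between these libraries, which may be technical.

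PARP family enzymes transfer ADP-ribose from NAD+ to proteins and nucleic acids, most of them as a single unit. Many of the mono-ADP-ribosyltransferases are known interferon-stimulated genes. PARP9 works in a complex with the E3 ubiquitin ligase DTX3L, PARP14 binds and writes ADP-ribose through its macrodomains and catalytic domain, and ZC3HAV1, also called ZAP or PARP13, lacks catalytic activity and binds viral RNA. In macrophages such genes are read as part of the antiviral and inflammatory program. Interferon is not among the treatments named, and whether the fluid fractions held any is not given in the sources used here. Ifnb1, the gene of interferon beta, was listed at 0 in all 4 PBS libraries and at 0 to 5 counts per library over all 20, which is too low for a test.

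The labelled cell type was checked first. All 8 macrophage markers of a list were above 3 CPM (counts scaled to the library total) on average in every group, and they summed to between 8620 and 12970 CPM per library. Of the markers of other cells, Epx, Sftpc, Sftpa1 and Muc5b had no count and Ly6g had a count in 1 library, whereas Krt8 (up to 12.9 CPM), Col1a2 (up to 25.1), Col1a1 (up to 13.9), Col3a1 (up to 9.25) and Ngp (up to 13.4) were counted in all 20. The 5 fibroblast markers summed to 24.7 to 51.4 CPM with PBS, 22.5 to 39.5 with RNY1+/+ EVFx, 10.8 to 20.9 with RNY1-/- EVFx and 11.6 to 29.0 with ProteinFx. The neutrophil list, mostly S100a8, S100a9 and Mmp8, summed to 328 to 364 CPM with PBS, 156 to 221 with RNY1+/+ EVFx, 198 to 279 with RNY1-/- EVFx and 230 to 402 with ProteinFx. T cell, B cell and epithelial lists summed to at most 9.22, 3.78 and 15.9 CPM in any library. The eosinophil list, mostly Ccr3, held 7.17 to 13.5 CPM with PBS, 0.80 to 2.46 with EVFx and 12.4 to 21.1 with ProteinFx. The part of these genes in the results below was not tested. Library totals ranged from 2510005 to 8277366 counts. Rny1 itself, listed under 2 entries with equal counts, had at most 3 counts per library over both. Its level in these wild-type cells is thus no check of the fluid's genotype.

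Positions are those of GRCm38, the build of the annotation consulted, whereas the authors' counts were made on GRCm39. Parp14 (chr16:35832874-35871544) and Dtx3l (chr16:35926511-35939151) lie on the minus strand, 55.0 kb apart. Parp9 (chr16:35938470-35972605) lies on the plus strand, head to head with Dtx3l and overlapping it by 682 bp. The overlap is at the 5′ ends and the counting used strand. Zc3hav1 (chr6:38305286-38354603, minus), Parp12 (chr6:39086410-39118349, minus) and Parp11 (chr6:127446840-127494261, plus) share chromosome 6. Parp3 (chr9:106470322-106476949), Parp8 (chr13:116854820-117025537) and Parp10 (chr15:76231174-76243441) lie on the minus strand of other chromosomes.

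Promoter windows of 300 bases, 250 before and 50 after the gene's start, were held by RefSeq sequence of GRCm38.p6 for 6 of the 9 genes, in 7 windows. They were searched on both strands for the letters GAAA, any 2 bases and GAAA again, the core of an interferon-stimulated response element, for TTC, any 3 bases and GAA, the core of a STAT site, and for GGG, any 2 bases and TTTCC, a form of the NF-kappaB site. The first was found in 1 of the 7 windows and in 3.44% of all 32851 windows. The second was in the same window and in 8.298% of all, and the third in the same window again and in 1.63% of all. That window belongs to Parp11, and the first match starts 44 bases before the gene's start and shares its last bases with the second. The windows of Parp3, Parp8, Parp12, Dtx3l, Zc3hav1 and the second Parp11 start held none of these letters, which says nothing of sites outside them. The Parp11 window is shown for its matches, which are in capitals, at chr6:127446590-127446889, plus strand. The Dtx3l window is shown because it lies where the genes of Dtx3l and Parp9 overlap, at chr16:35938978-35939277, minus strand.
Parp11: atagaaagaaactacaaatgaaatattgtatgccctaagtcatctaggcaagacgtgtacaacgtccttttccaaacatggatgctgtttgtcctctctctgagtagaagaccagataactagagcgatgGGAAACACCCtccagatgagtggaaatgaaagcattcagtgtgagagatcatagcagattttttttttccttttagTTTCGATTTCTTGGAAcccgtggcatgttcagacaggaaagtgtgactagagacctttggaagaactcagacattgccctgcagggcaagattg
Dtx3l: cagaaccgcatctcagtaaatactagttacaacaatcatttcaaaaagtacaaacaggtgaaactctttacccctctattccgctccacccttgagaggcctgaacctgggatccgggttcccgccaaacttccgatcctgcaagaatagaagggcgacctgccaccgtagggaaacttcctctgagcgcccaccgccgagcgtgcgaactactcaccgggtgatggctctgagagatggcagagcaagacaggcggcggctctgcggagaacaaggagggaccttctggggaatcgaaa

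The first question was which of the 9 genes responded to each fraction. With RNY1+/+ EVFx, 8 of 9 were called higher than with PBS (edgeR quasi-likelihood test; a call needs a Benjamini-Hochberg adjusted p below 0.05 together with a log2 fold change past 1 in size), where 8.24% of the 10797 genes tested were called higher. With RNY1+/+ ProteinFx all 9 were called higher, against 8.96% of 10834 genes. With RNY1-/- EVFx the number was 7, against 9.03% of 10730 genes, and with RNY1-/- ProteinFx it was 6, against 6.31% of 10856 genes. None of the 9 was called lower, where 8.2%, 12.4%, 13.5% and 7.99% of genes were in that order. The median log2 fold change of the 9 genes was 1.62, 1.93, 1.76 and 1.51 in the same order, and that of all genes tested was -0.03 in each. The 4 comparisons share the PBS libraries, so they are not independent of each other. In bulk RNA, fewer cells of a type and less RNA per cell cannot be told apart.

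**Figure D1:**
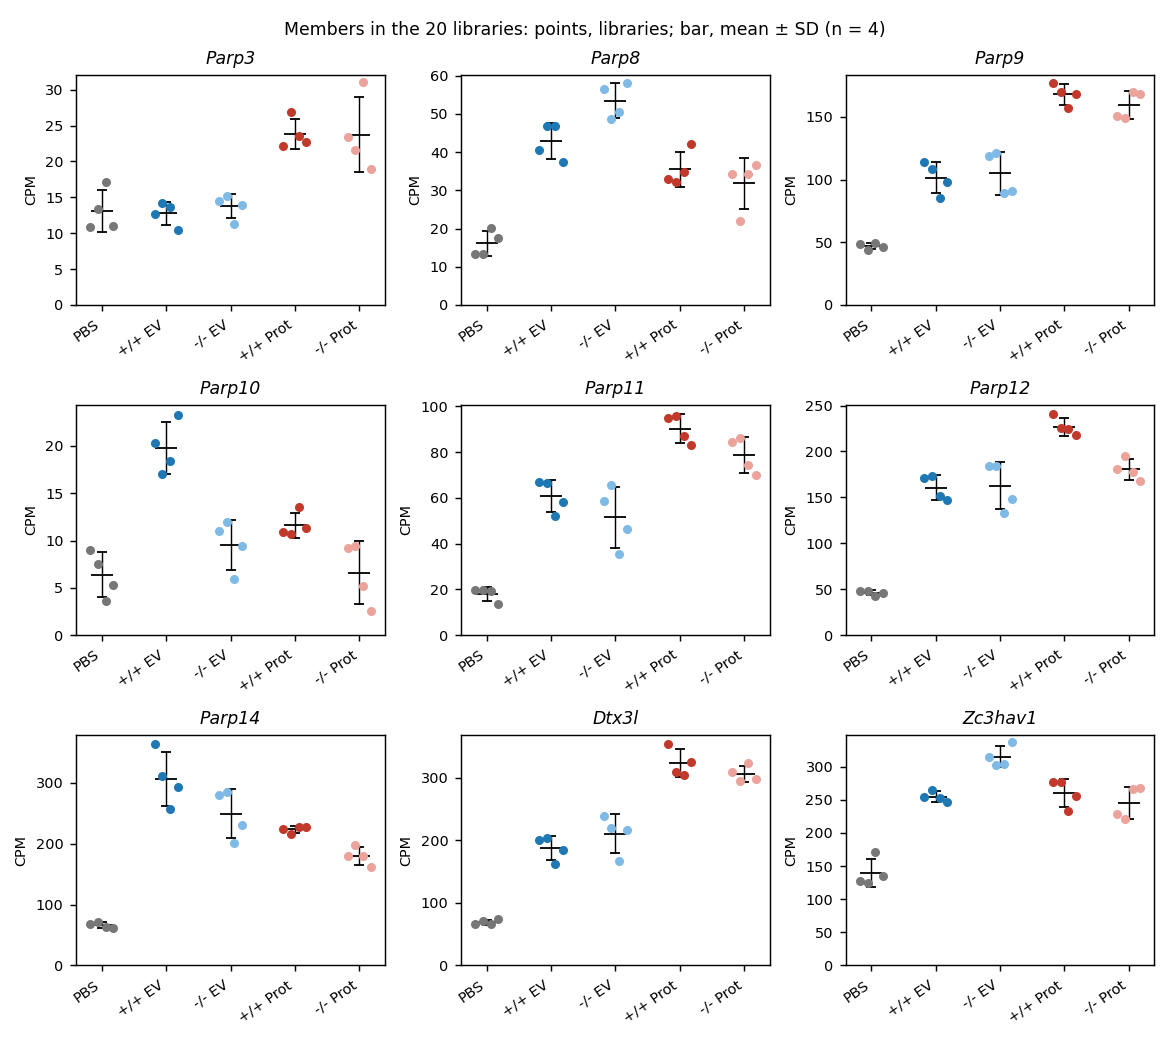
Level of each gene in the 20 libraries, in CPM on a linear axis from 0, by treatment (EV, EVFx; Prot, ProteinFx; +/+ and -/-, RNY1 genotype of the fluid). Points are libraries and bars are the mean ± SD (n = 4). Parp14 and Parp10 stand highest with RNY1+/+ EVFx, Parp9, Dtx3l, Parp11 and Parp12 with ProteinFx, and Parp8 and Zc3hav1 with RNY1-/- EVFx.

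Dtx3l, the ubiquitin ligase that partners PARP9, had 66.5, 70.3, 65.6 and 74.5 CPM in the 4 PBS libraries. With RNY1+/+ EVFx it had 201, 204, 162 and 184 CPM, and with RNY1-/- EVFx 239, 220, 166 and 217. In the RNY1+/+ ProteinFx libraries it stood at 354, 309, 305 and 326 CPM, and in the RNY1-/- ProteinFx libraries at 310, 295, 323 and 298. The PBS, EVFx and ProteinFx libraries formed 3 ranges with no overlap, whatever the genotype of the fluid. Against PBS, Dtx3l rose 3.06-fold with RNY1+/+ EVFx (log2 1.62, SE 0.11) and 5.25-fold with RNY1+/+ ProteinFx (log2 2.39, SE 0.11). With RNY1-/- fluid the folds were 3.60 with EVFx and 4.65 with ProteinFx.

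Parp9, whose product binds ADP-ribose through macrodomains and acts with DTX3L, followed the same order of groups. It averaged 47.0 ± 2.60 CPM with PBS, 101 ± 12.5 with RNY1+/+ EVFx, 105 ± 17.3 with RNY1-/- EVFx, 168 ± 8.46 with RNY1+/+ ProteinFx and 160 ± 11.03 with RNY1-/- ProteinFx (SD, n = 4). The lowest ProteinFx library, at 149 CPM, was above the highest EVFx library, at 121 CPM. Parp9 rose 2.44-fold with RNY1+/+ EVFx and 4.03-fold with RNY1+/+ ProteinFx. With RNY1-/- fluid it rose 2.65-fold with EVFx and 3.57-fold with ProteinFx.

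Parp14, a mono-ADP-ribosyltransferase known as a cofactor of STAT6 in interleukin-4 signalling, had another order. It had 67.7, 71.5, 62.4 and 62.1 CPM with PBS and 364, 312, 257 and 293 CPM with RNY1+/+ EVFx. The RNY1-/- EVFx libraries held 280, 285, 201 and 231 CPM. With RNY1+/+ ProteinFx it had 224, 215, 228 and 227 CPM, and with RNY1-/- ProteinFx 179, 198, 179 and 162. The RNY1+/+ EVFx libraries all lay above the RNY1+/+ ProteinFx libraries, the reverse of Dtx3l. Parp14 rose 5.25-fold with RNY1+/+ EVFx (log2 2.39, SE 0.12) and 3.81-fold with RNY1+/+ ProteinFx (log2 1.93, SE 0.10). With RNY1-/- fluid it rose 4.47-fold with EVFx and 2.85-fold with ProteinFx.

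Parp12, a CCCH zinc finger mono-ADP-ribosyltransferase known for antiviral activity, had 48.6, 48.0, 42.8 and 45.7 CPM with PBS. The RNY1+/+ ProteinFx libraries held 241, 225, 224 and 218 CPM and the RNY1-/- ProteinFx libraries 181, 195, 178 and 168, and these ranges did not overlap. EVFx of either genotype gave 133 to 185 CPM, with overlapping ranges. Parp12 rose 5.51-fold with RNY1+/+ ProteinFx (log2 2.46, SE 0.10) and 3.92-fold with RNY1+/+ EVFx. It rose 4.08-fold with RNY1-/- ProteinFx and 4.15-fold with RNY1-/- EVFx.

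Parp11, another mono-ADP-ribosyltransferase, averaged 18.1 ± 3.09 CPM with PBS, 60.9 ± 7.06 with RNY1+/+ EVFx and 90.2 ± 6.28 with RNY1+/+ ProteinFx. It stood at 51.5 ± 13.3 CPM with RNY1-/- EVFx and 78.7 ± 7.96 with RNY1-/- ProteinFx. As with Dtx3l and Parp9, the ProteinFx libraries (69.8 to 95.9 CPM) lay above the EVFx libraries (35.5 to 66.8 CPM). Parp11 rose 3.81-fold with RNY1+/+ EVFx and 5.59-fold with RNY1+/+ ProteinFx. With RNY1-/- fluid the rises were 3.38-fold and 4.55-fold.

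Zc3hav1, the antiviral RNA-binding member, had 128, 124, 171 and 135 CPM with PBS. With RNY1+/+ EVFx it had 254, 266, 253 and 246 CPM, and with RNY1-/- EVFx 315, 303, 305 and 337. ProteinFx gave 233 to 277 CPM with RNY1+/+ and 221 to 267 CPM with RNY1-/- fluid. All 16 treated libraries lay above the 4 PBS libraries, and the RNY1-/- EVFx libraries lay above all others. Zc3hav1 rose 2.67-fold with RNY1-/- EVFx, and its rises with RNY1+/+ EVFx (2.06-fold) and RNY1+/+ ProteinFx (2.101-fold) were close to the fold limit. With RNY1-/- ProteinFx the fold was 1.85 (adjusted p = 0.00105), under that limit. The call with RNY1+/+ EVFx was lost without PBS replicate 2 (log2 0.98) or with library totals (0.87). That with RNY1+/+ ProteinFx was lost with library totals (0.90) or with length and GC trends removed (0.85). With RNY1-/- ProteinFx replicates 3 and 4 alone, the log2 fold change was 1.07.

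Parp8, a mono-ADP-ribosyltransferase whose role is little known, had 13.3, 13.4, 20.1 and 17.4 CPM with PBS. The RNY1-/- EVFx libraries held 56.5, 48.5, 50.5 and 58.0 CPM, above the RNY1+/+ EVFx libraries at 40.5, 46.8, 46.9 and 37.3. ProteinFx gave 32.2 to 42.1 CPM with RNY1+/+ and 22.0 to 36.6 CPM with RNY1-/- fluid. Parp8 rose 3.02-fold with RNY1+/+ EVFx, 3.95-fold with RNY1-/- EVFx, 2.497-fold with RNY1+/+ ProteinFx and 2.07-fold with RNY1-/- ProteinFx. The last was near the limit, with log2 fold changes of 0.95 to 0.97 without PBS replicate 1, PBS replicate 2 or RNY1-/- ProteinFx replicate 4. With length and GC trends removed from the counts, the log2 fold changes with ProteinFx were 0.81 (RNY1+/+) and 0.60 (RNY1-/-).

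Parp10, a mono-ADP-ribosyltransferase known to limit NF-kappaB signalling, was the lowest-count gene of the 9, with 10 to 193 counts per library. It had 9.02, 7.57, 3.66 and 5.34 CPM with PBS and 20.3, 17.02, 18.4 and 23.3 CPM with RNY1+/+ EVFx. The RNY1-/- EVFx libraries held 11.03, 11.9, 5.91 and 9.42 CPM, the RNY1+/+ ProteinFx libraries 10.9, 10.6, 13.6 and 11.3, and the RNY1-/- ProteinFx libraries 9.26, 9.37, 5.18 and 2.59. The 4 RNY1+/+ EVFx libraries lay above all 16 others. Parp10 rose 3.46-fold with RNY1+/+ EVFx (log2 1.79, SE 0.23) and 2.02-fold with RNY1+/+ ProteinFx (log2 1.01, SE 0.24). The second call was lost without PBS replicate 3, PBS replicate 4 or RNY1+/+ ProteinFx replicate 3, at log2 fold changes of 0.83 to 0.95, and also with library totals (0.84), scaling to Rab14, Arpc2 and Cltc (0.94), no filter (0.99) or all 20 libraries in 1 fit (0.97). With RNY1-/- EVFx the fold was 1.78 (adjusted p = 0.0249). That comparison passed the fold limit too without PBS replicate 1, at a log2 fold change of 1.04, and missed the adjusted p without PBS replicate 4 or without RNY1-/- EVFx replicate 1, 2 or 4 (highest 0.0726). With RNY1-/- ProteinFx the log2 fold change was 0.15 (SE 0.37, adjusted p = 0.766), and it ran from -0.66, with replicates 3 and 4 of that group alone, to 0.61 over the alternatives. With length and GC trends removed and the replicate number as a block it was 0.57 (adjusted p = 0.0226).

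Parp3, known for its part in the repair of DNA breaks, had ranges with EVFx of both genotypes that overlapped PBS, as Parp10 did with RNY1-/- EVFx. It had 10.9, 13.4, 17.1 and 11.03 CPM with PBS, 12.7, 14.3, 13.6 and 10.5 with RNY1+/+ EVFx, and 22.2, 26.9, 23.6 and 22.7 with RNY1+/+ ProteinFx. The ProteinFx libraries of both genotypes, at 18.9 to 31.1 CPM, lay above all PBS and EVFx libraries. With EVFx its log2 fold changes were 0.14 (RNY1+/+, adjusted p = 0.554) and 0.32 (RNY1-/-, adjusted p = 0.131), and scaling by library totals put the first at -0.04. The second passed the adjusted p without PBS replicate 3 (0.0103). With RNY1+/+ ProteinFx it rose 2.05-fold (log2 1.03, SE 0.16), a call that was lost without PBS replicate 1, PBS replicate 4 or RNY1+/+ ProteinFx replicate 2 (log2 0.95 to 0.99), with library totals (0.86) or scaled to Rab14, Arpc2 and Cltc (0.98). With RNY1-/- ProteinFx the fold was 1.88 (adjusted p = 0.00701), and the log2 fold change was 1.04 without PBS replicate 3.

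**Figure D2:**
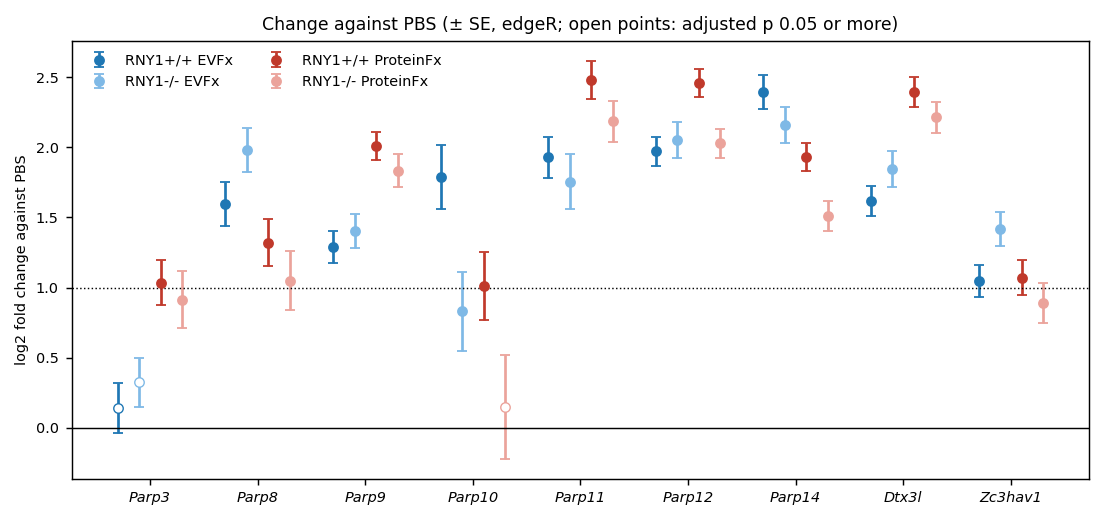
Log2 fold change of each gene against PBS with the 4 fractions (edgeR, ± SE, 4 libraries against 4). The dotted line marks the fold limit of 1 and open points have an adjusted p of 0.05 or more: Parp3 with EVFx of both genotypes and Parp10 with RNY1-/- ProteinFx.

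The second question was whether the 2 fractions of RNY1+/+ fluid differed from each other. By adjusted p alone 7 of the 9 genes differed, 5 higher and 2 lower with ProteinFx, where 63.3% of the 10443 genes tested differed (31.1% higher and 32.2% lower). A share that high leaves the count itself near the background. None passed the fold limit as well by edgeR or by DESeq2, which 6.71% of genes did upward and 6.82% downward. An unadjusted p under 0.05 was found for 8, and for at least 63.3% of all genes tested. The doses of the fractions are on different scales.

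Higher with ProteinFx were Parp3 (1.87-fold, adjusted p = 1.85e-05), Dtx3l (1.72-fold, adjusted p = 3.65e-06), Parp9 (1.66-fold, adjusted p = 9.36e-06), Parp11 (1.47-fold, adjusted p = 0.000107) and Parp12 (1.41-fold, adjusted p = 9.66e-05). Lower were Parp14, at a log2 fold change of -0.46 (SE 0.10, adjusted p = 0.000949), and Parp10, at -0.78 (SE 0.14, adjusted p = 0.00018). Parp8 (log2 -0.26, SE 0.11, adjusted p = 0.0606) and Zc3hav1 (log2 0.03, SE 0.08, adjusted p = 0.735) did not pass. The interval for Zc3hav1 ran from -0.125 to 0.19. Parp8 passed without replicate 4 of either group (adjusted p = 0.0245 and 0.0116, edgeR). Across genes, the fold change between these fractions followed GC content (Spearman rho -0.49 over 10120 genes), and the transcript of Parp10 has 57.9% GC, the highest of the 9. With length and GC trends removed, the value for Parp10 was -0.26 (adjusted p = 0.0577) and that for Parp14 was -0.71 (adjusted p = 1.8e-05). Parp8 then passed at -0.60, and Parp3 passed the fold limit too at 1.16.

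Parp14 and Dtx3l, neighbours on chromosome 16 with 46.3% and 45.9% GC, thus differed in opposite directions. Their ratio was taken within each library, where scaling between libraries cancels. This ratio, and that of Parp9 to Dtx3l, were chosen after the values were seen. Since CPM is not per length, the ratio has meaning between groups and not as a level of one gene against the other. Parp14 over Dtx3l was 0.96 ± 0.09 with PBS, 1.63 ± 0.13 with RNY1+/+ EVFx and 1.18 ± 0.09 with RNY1-/- EVFx (SD, n = 4). With ProteinFx it was 0.69 ± 0.05 (RNY1+/+) and 0.59 ± 0.06 (RNY1-/-). Every EVFx library lay above, and every RNY1+/+ ProteinFx library below, the PBS range of 0.83 to 1.02. By exact two-sided permutation tests, 5 of 6 comparisons of this ratio gave p = 0.0286, the smallest that 4 libraries against 4 allow (0.049 after adjustment over 12 tests). The adjustment does not cover the choice of this pair of genes, which were taken because they moved apart. These 5 were each RNY1+/+ fraction against PBS, ProteinFx against EVFx in each genotype, and RNY1-/- against RNY1+/+ EVFx. Without RNY1+/+ ProteinFx replicate 1, that fraction against PBS gave p = 0.0571 by the same exact test. The log2 difference between RNY1+/+ ProteinFx and RNY1+/+ EVFx was -1.23, and it stayed between -1.27 and -1.18 without each library in turn. RNY1-/- EVFx differed from RNY1+/+ EVFx by -0.46 on the log2 scale. For RNY1-/- against RNY1+/+ ProteinFx the difference was -0.24 (exact permutation p = 0.0571, adjusted p = 0.0857).

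Parp9 over Dtx3l behaved otherwise. It was 0.68 ± 0.07 with PBS and 0.50 to 0.54 on average in the 4 treated groups. Both RNY1+/+ fractions were below PBS (exact permutation p = 0.0286 for each, 0.049 adjusted). No comparison between fractions or genotypes passed, and the log2 differences of those 4 lay between -0.11 and 0.06.

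**Figure D3:**
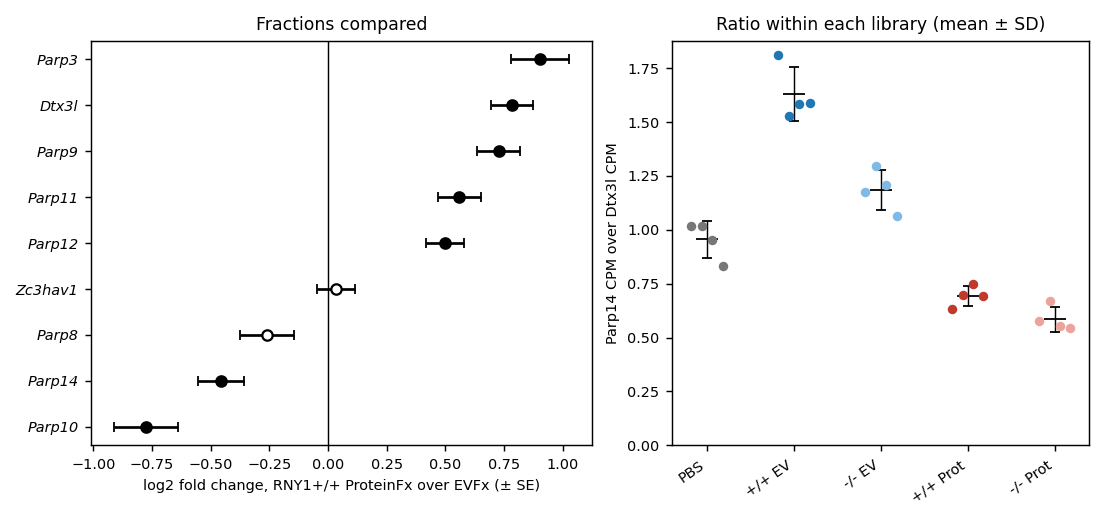
Left, log2 fold change of each gene between RNY1+/+ ProteinFx and RNY1+/+ EVFx (edgeR, ± SE; open points, adjusted p of 0.05 or more), with Dtx3l and Parp9 higher and Parp14 and Parp10 lower with ProteinFx. Right, Parp14 CPM over Dtx3l CPM in each library (points) with the mean ± SD of each group (n = 4), highest with RNY1+/+ EVFx at 1.63 and lowest with RNY1-/- ProteinFx at 0.59.

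The third question was what the RNY1 genotype of the fluid changed. In EVFx, 3 of the 9 genes passed the adjusted p, 2 higher and 1 lower with RNY1-/- fluid, where 52.1% of the 10322 genes tested did (25.5% higher and 26.6% lower). None passed the fold limit by edgeR or by DESeq2, where 2.35% of genes did. An unadjusted p under 0.05 was found for 4, and for at least 52.1% of all genes tested. Parp10 was lower with RNY1-/- EVFx, at a log2 fold change of -0.94 (SE 0.17, adjusted p = 0.000815), and its ranges of 5.91 to 11.9 and 17.02 to 23.3 CPM did not overlap. Parp8 (log2 0.40, SE 0.10, adjusted p = 0.0054) and Zc3hav1 (log2 0.38, SE 0.07, adjusted p = 0.00105) were higher, also with no overlap. The intervals of the other 6 genes lay between -0.461 and 0.455 on the log2 scale. The fold changes of this comparison followed GC content across genes (rho -0.65 over 10020 genes). With length and GC trends removed, Parp8 was at 0.08 (adjusted p = 0.45), Zc3hav1 at 0.20 (adjusted p = 0.0276) and Parp10 at -0.46 (adjusted p = 0.0195), while Parp3 at 0.44 (adjusted p = 0.0242) and Parp14 at -0.46 (adjusted p = 0.00988) passed as well. Parp10 passed the fold limit, at -1.032 to -1.003, without RNY1+/+ EVFx replicate 2 or without RNY1-/- EVFx replicate 1 or 2. Dtx3l passed the adjusted p without RNY1-/- EVFx replicate 3 (0.00988) and Parp14 without RNY1+/+ EVFx replicate 3 (0.0415), which were the libraries with the lowest levels of these genes in their groups.

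In ProteinFx, 2 of the 9 genes passed the adjusted p, both lower with RNY1-/- fluid, where 3.37% of the 10472 genes tested were lower and 5.57% differed. These were Parp12, at a log2 fold change of -0.42 (SE 0.09, adjusted p = 0.0192), and Parp14, at -0.40 (SE 0.10, adjusted p = 0.0249). In both genes the 4 RNY1-/- libraries lay below the 4 RNY1+/+ libraries. None passed the fold limit by edgeR or by DESeq2, where 1.82% of genes did. An unadjusted p under 0.05 was found for 4, and the share of all genes at that cut is not given here. All 9 fold changes were below 0, with a median of -0.27 against 0.02 for all genes tested. Parp3 had the highest of the 9, and 29.5% of all genes tested had a smaller fold change than Parp3. The 9 values are not independent, since they come from the same libraries and several of the genes ran together (Parp9 and Dtx3l, r = 0.985 over the 20 libraries). For Parp3, Parp8, Parp9, Parp11, Dtx3l and Zc3hav1 the fold changes lay between -0.28 and -0.12 and did not pass over the 4 libraries. Parp10 was at -0.82 (SE 0.27, adjusted p = 0.111) and passed with length and GC trends removed (-0.89, adjusted p = 0.0191, and -0.94, adjusted p = 0.038, with the replicate block) and with no filter (-0.79, adjusted p = 0.0125).

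Both calls were close to the threshold. The adjusted p of Parp12 was over 0.05 without RNY1+/+ ProteinFx replicate 1 or 4 or RNY1-/- ProteinFx replicate 1 (0.0572 to 0.0739), and that of Parp14 without any RNY1+/+ ProteinFx library or without RNY1-/- ProteinFx replicate 1 or 4 (0.0512 to 0.0897). Their fold changes stayed between -0.44 and -0.38. Over all alternatives the adjusted p ran from 0.000151 to 0.0739 for Parp12 and from 0.000572 to 0.0897 for Parp14. It was over 0.05 in 7 of 19 alternatives for Parp12 and in 11 of 19 for Parp14. Among these were library totals (0.0513 and 0.0691), scaling to Rab14, Arpc2 and Cltc (0.0666 and 0.0684) and no filter (0.0599 and 0.077). The RNY1-/- ProteinFx libraries fell into the pairs 1 and 2, and 3 and 4, in Parp9, Parp10, Parp11 and Zc3hav1. In Parp11 these were 84.5 and 86.3 CPM against 74.3 and 69.8. Since the pairs show in these same values, the contrast between them is no independent test for these genes. Each fit by pair held only 2 libraries of that group. Against RNY1+/+ ProteinFx, pair 3 and 4 alone gave log2 fold changes of -0.03 for Parp9, -0.003 for Zc3hav1 and -1.69 for Parp10, of which the last passed the adjusted p (0.00353) and the fold limit. Pair 1 and 2 alone gave -0.30 (adjusted p = 0.0272), -0.35 (adjusted p = 0.0199) and -0.45 (adjusted p = 0.0667), and Parp8 passed there too, at -0.50 (adjusted p = 0.0493). With pair 1 and 2 alone, 2906 of all 10483 genes tested passed the adjusted p. With pair 3 and 4 alone 868 of 10394 did, and over the 4 libraries 583 of 10472. The added passes with pair 1 and 2 thus came with more passes among all genes. Parp12 (-0.43 and -0.41) and Parp14 (-0.43 and -0.38) differed little between the pairs, with adjusted p from 0.00615 to 0.0163. Parp11 did not pass in any alternative, with log2 fold changes of -0.363 to -0.191.

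**Figure D4:**
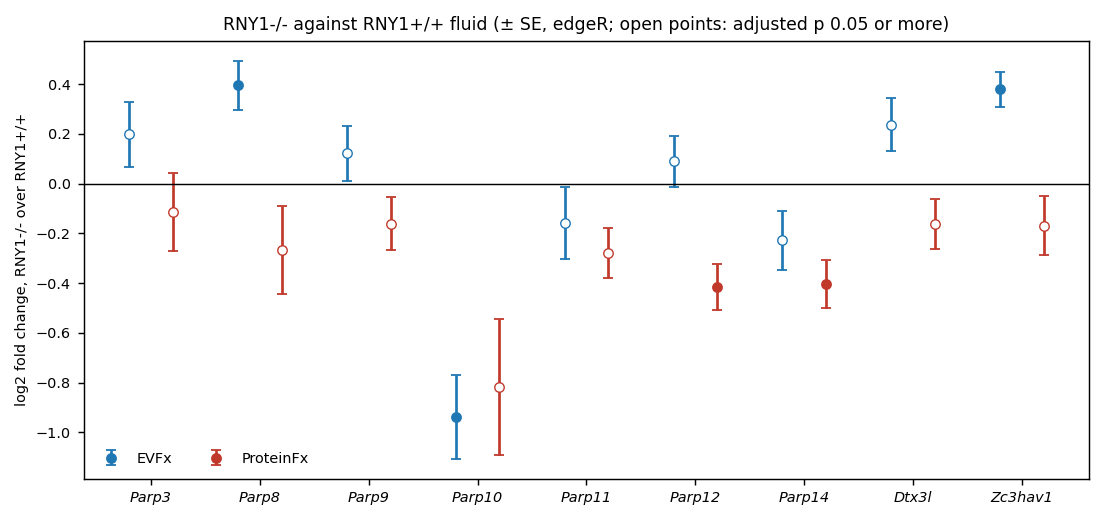
Log2 fold change of each gene between RNY1-/- and RNY1+/+ fluid, in EVFx and in ProteinFx (edgeR, ± SE, 4 libraries against 4; open points, adjusted p of 0.05 or more). All 9 values in ProteinFx are below 0, though they share their libraries and are not independent. In EVFx 6 are above 0 and Parp10, Parp11 and Parp14 below.

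The difference between the 2 genotype effects was tested as an interaction over the 16 treated libraries. By adjusted p 4 of the 9 genes passed, all with a lower effect in ProteinFx than in EVFx, where 16.2% of the 10443 genes tested were lower and 33% passed in either direction. Parp8 had a difference of -0.67 (SE 0.21, adjusted p = 0.023), Zc3hav1 of -0.55 (SE 0.14, adjusted p = 0.00859), Parp12 of -0.51 (SE 0.14, adjusted p = 0.0115) and Dtx3l of -0.40 (SE 0.15, adjusted p = 0.0462). Across genes this difference followed GC content too (rho 0.58 over 10118 genes), and with those trends removed Parp12 and Zc3hav1 passed while Parp8 (-0.31, adjusted p = 0.19) and Dtx3l (-0.18, adjusted p = 0.35) did not. Without replicates 1 and 2 of RNY1-/- ProteinFx none of the 4 passed, at -0.43, -0.37, -0.51 and -0.32 for Parp8, Zc3hav1, Parp12 and Dtx3l. In that fit 350 of all 10405 genes tested passed, so the loss was shared by genes at large. The adjusted p of Parp8 was over 0.05 without replicate 4 of RNY1+/+ EVFx, RNY1-/- EVFx or RNY1+/+ ProteinFx, or without RNY1-/- ProteinFx replicate 2 (0.0526 to 0.0602). That of Dtx3l was over 0.05 without 11 of the 16 libraries (0.0569 to 0.108). Without RNY1-/- ProteinFx replicate 3, Parp3 passed at -0.45 (adjusted p = 0.0475). For Parp10, which was lower with RNY1-/- fluid in both fractions, the difference was 0.14 (SE 0.34, adjusted p = 0.761).

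The rest of the pathway was described through lists drawn up with earlier results of these data known. Of the other 8 ADP-ribosyltransferases (Parp1, Parp2, Parp4, Parp6, Parp16, Tiparp, Tnks and Tnks2), 1 was called higher with RNY1+/+ EVFx, RNY1+/+ ProteinFx and RNY1-/- EVFx, where 8.24%, 8.96% and 9.03% of all genes were, 0 with RNY1-/- ProteinFx (6.31% of all genes), and 0 lower with any fraction. That is near these shares. At adjusted p alone, 1, 1, 1 and 2 were higher and 0, 2, 1 and 1 lower with RNY1+/+ EVFx, RNY1+/+ ProteinFx, RNY1-/- EVFx and RNY1-/- ProteinFx, where 21.7%, 25.9%, 27.7% and 16.7% of all genes were higher and 22.8%, 29.3%, 30.7% and 19% lower. Parp1, the founding polymerase of DNA repair, was among those lower with RNY1+/+ ProteinFx (-0.63), RNY1-/- EVFx (-0.54) and RNY1-/- ProteinFx (-0.59). The called gene was Tiparp, the mono-ADP-ribosyltransferase PARP7, at log2 fold changes of 1.25, 1.17 and 1.45. With length and GC trends removed it was called in RNY1+/+ EVFx alone. The list's medians lay between 0.04 and 0.13, against -0.03 for all genes.

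Among genes that make or use NAD+, the substrate of the family, 8 of 19 were high enough to test, and 3, 3, 3 and 2 were called higher with RNY1+/+ EVFx, RNY1+/+ ProteinFx, RNY1-/- EVFx and RNY1-/- ProteinFx, beside 8.24%, 8.96%, 9.03% and 6.31% of all genes. Nampt, the rate-limiting enzyme of NAD+ salvage, rose by 2.21, 2.18, 2.82 and 1.90 on the log2 scale in that order. Cd38, an NAD+-consuming ectoenzyme, rose by 4.36, 5.30, 4.28 and 3.75. Bst1, its paralogue, rose by 1.51, 1.57 and 1.78 with the first 3 fractions. In ProteinFx the genotype call of the list was Cd38, lower with RNY1-/- fluid at -1.53 (SE 0.16, adjusted p = 0.000197).

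Among enzymes that remove or read ADP-ribose, 6 or 7 of 9 were tested. None was called higher, beside 8.24%, 8.96%, 9.03% and 6.31% of all genes with RNY1+/+ EVFx, RNY1+/+ ProteinFx, RNY1-/- EVFx and RNY1-/- ProteinFx. The number called lower was 0, 1, 1 and 1 in that order, beside 8.2%, 12.4%, 13.5% and 7.99% of all genes. These counts are near those shares. Adprs, which releases ADP-ribose from serine, fell with RNY1+/+ ProteinFx (log2 -2.05, SE 0.43) and RNY1-/- EVFx (log2 -1.87, SE 0.42). With RNY1-/- ProteinFx it was called too, at -1.20 (adjusted p = 0.0479), a call kept without 2 of the 8 libraries, namely PBS replicates 3 and 4, and lost with length and GC trends removed (-0.66).

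Of the DELTEX ligases and the cofactors of ZC3HAV1, 10 or 11 of 12 were tested. Called higher were 2, 2, 1 and 1 with RNY1+/+ EVFx, RNY1+/+ ProteinFx, RNY1-/- EVFx and RNY1-/- ProteinFx. Called lower were 1, 2, 1 and 1 in that order. Of all genes, 8.24%, 8.96%, 9.03% and 6.31% were called higher and 8.2%, 12.4%, 13.5% and 7.99% lower. Dtx4 was called lower with RNY1+/+ ProteinFx and, between genotypes, with RNY1-/- EVFx. The first call was lost without PBS replicate 1 or 2 or RNY1+/+ ProteinFx replicate 2 or 4 (-0.997 to -0.885). It was lost too with the replicate block (-0.984) or with length and GC trends removed (-0.851). The second was lost by DESeq2 (-0.991), scaled to Rab14, Arpc2 and Cltc (-0.977) or in 1 fit of all 20 libraries (-0.993). The block (-0.984) and removal of the trends (-0.871) ended it as well. So did leaving out RNY1+/+ EVFx replicate 4 or RNY1-/- EVFx replicate 1 or 2 (-0.96 to -0.861). N4bp1, an RNA nuclease known to limit NF-kappaB signals, was called higher with every fraction (with RNY1+/+ EVFx not under library totals, 0.97), at log2 fold changes of 1.15 and 1.40 with EVFx and 2.42 and 2.12 with ProteinFx (RNY1+/+ first). Dtx3 was called lower with every fraction (-1.14 to -2.30), though not with RNY1+/+ EVFx without PBS replicate 2 (-0.95) nor with RNY1-/- ProteinFx once length and GC trends were removed (-0.855). Dtx2 rose with RNY1+/+ EVFx (1.85) and RNY1+/+ ProteinFx (1.65) and was lower with RNY1-/- than with RNY1+/+ fluid in EVFx (-1.19, SE 0.19, and -0.96 with length and GC trends removed) and in ProteinFx (-1.98, SE 0.23).

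Of the interferon signal and its first targets, 19 of 20 were tested and 14, 13, 13 and 13 were called higher in the same order (8.24%, 8.96%, 9.03% and 6.31% of all genes), with medians of 2.23, 2.49, 2.01 and 2.18 on the log2 scale and none called lower. Cxcl10, a chemokine, had the largest rise with RNY1+/+ ProteinFx, 6.70 (SE 0.26). Between genotypes in ProteinFx, 5 of the 19 were called lower with RNY1-/- fluid and none higher, where 1.17% of all genes were called lower and 0.659% higher: Cxcl10 (-2.36), Rsad2 (-1.39), Mx1 (-1.26), Usp18 (-1.09) and Ifit1 (-1.03). The call of Ifit1 was lost without any 1 of 5 of the 8 libraries, by DESeq2 and under both other scalings, and that of Usp18 without RNY1-/- ProteinFx replicate 4 or with library totals. Parp12 and Parp14, at -0.42 and -0.40, had smaller fold changes than these, and the median of the list was -0.32 beside -0.27 for the 9 genes. In EVFx none of the 19 was called between genotypes, 2 were higher and 5 lower by adjusted p, where 25.5% of all genes were higher and 26.6% lower, and the median was -0.18. The share of the list that was lower is that of all genes.

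The genes whose level ran most like each of the 9 over the 20 libraries were found among 7542 genes of at least 10 CPM on average, by Pearson's r of log2(CPM + 1). The libraries fall into treatment groups that share their fluid, so r describes these libraries only. Parp12 ran most like Rnf213 (r = 0.996) and Ms4a6c (r = 0.994), Parp9 like Iigp1 (r = 0.991) and Iigp1c (r = 0.989), and Dtx3l like Ifi213 and Ifi47 (r = 0.99 for both). Parp14 ran most like Psme2b (r = 0.987) and Oasl1 (r = 0.986), and Parp11 like Slfn1 (r = 0.985) and Fgl2 (r = 0.983). For Zc3hav1 these were Nampt (r = 0.989) and Casp1 (r = 0.974), and for Parp8 Rnf115 and Gca (r = 0.966 for both). Parp3 was most like Luzp1 (r = 0.945) and the unnamed gene ENSMUSG00000138427 (r = 0.931), and Parp10 like Slc15a3 (r = 0.927) and Vav1 (r = 0.925). Within the set, Parp9, Dtx3l, Parp11 and Parp12 had r of 0.944 to 0.985 with each other, and Parp8 and Zc3hav1 had 0.941. Parp3 and Parp10 had -0.208, and Parp10 reached at most 0.655, with Parp14.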

How the data were processed

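Polyadenylated RNA of the BMDMs was read from the 3′ end with unique molecular identifiers. Per the labels and the study's methods, the authors' provider used fastp 0.24.0, STAR 2.7.11 and featureCounts of Subread 2.1.1 on GRCm39, counting by strand over exons and 3′ UTRs and sharing reads that map to several places as fractions. The authors deposited expected counts and CPM (count over library total). Fractional counts were 23.6% to 26.3% of detected genes, and in 2 to 12 libraries those of Parp8, Parp11, Parp14 and Dtx3l. Intervals are the log2 fold change ± 1.96 SE of the edgeR fit. They state the uncertainty of a difference between group means, judged from the spread between these libraries.

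Counts were rounded to whole numbers. Genes that passed filterByExpr and averaged 3 CPM or more over the libraries fitted were kept, and glmQLFit and glmQLFTest of edgeR 4.0.16 were run with TMM factors on 8 libraries per comparison (16 for the interaction). Adjustment was by Benjamini-Hochberg over every gene tested. DESeq2 1.42.0 served as the other tool, under R 4.3.3, with ratios and tallies made in python 3.11.15. The fits were tested on simulated data. Lengths and GC came from GENCODE transcripts of GRCm38, found for 96.8% to 97.1% of the genes tested, and their trends were removed by splines with 4 degrees of freedom. The members and lists were chosen with earlier results of these data known. Of each list, at most 4 called genes with the largest change per comparison were named, and, for the interferon list between genotypes, a 5th chosen after its value was seen, as were the ratios. Parp1, which passed the adjusted p but not the fold limit, was named outside this rule. The labels give no shared source for libraries of the same replicate number. Only for RNY1-/- EVFx against PBS was every same-numbered correlation of deviations from the group mean over 0.1 (0.14, 0.379, 0.238 and 0.141). For replicates 1 and 4 a library of another number correlated better there (0.191 and 0.277), so pairing was not established. The block left 7 genes called in that comparison.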

Additional observations from a re-analysis of the deposited data

Results flagged for a closer look

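Parp8 in RNY1-/- ProteinFx had 1 library, at 22.0 CPM, far below the nearest of the other 3, at 34.3 CPM, a gap of 0.842 of the group's range. Parp11 with PBS had 1 library at 13.5 CPM against 19.2 for the nearest, a gap of 0.888. Chance alone gives a gap this wide in about 1 in 20 groups of 4, and 45 were looked at.

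By the interaction over 16 libraries, the genotype effect differed between the fractions for 4 of the 9 genes. Of the 10443 genes tested, 33% passed. The count of 4 became 0 without RNY1-/- ProteinFx replicates 1 and 2, and 1 with library totals. Of all genes, 350 of 10405 passed without those replicates and 3504 of 10443 with library totals, where 3449 did in the main fit. ProteinFx minus EVFx was -0.673 for Parp8, -0.509 for Parp12, -0.404 for Dtx3l and -0.552 for Zc3hav1 on the log2 scale. The effect was above 0 in EVFx and below 0 in ProteinFx for Parp8 (0.40, adjusted p = 0.0054, and -0.27, adjusted p = 0.459), Zc3hav1 (0.38, adjusted p = 0.00105, and -0.17, adjusted p = 0.482) and Dtx3l (0.24, adjusted p = 0.0792, and -0.16, adjusted p = 0.418). In EVFx Parp8 was at 0.08 with length and GC trends removed, and in ProteinFx Zc3hav1 was at -0.003 with RNY1-/- replicates 3 and 4 alone, and for Parp12 it was 0.09 in EVFx (adjusted p = 0.473) and -0.42 in ProteinFx (adjusted p = 0.0192, edgeR). The part of the GC trends and of the pairs of RNY1-/- ProteinFx libraries in these differences was not tested beyond the values given with them.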

How the results depend on the processing

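Of 1350 values of the 9 genes under alternatives, 1240 kept their direction and their side of the adjusted p, 59 lost the threshold, 31 gained it and 20 turned direction. Against PBS, the number of genes called higher was 7 to 8 with RNY1+/+ EVFx, 7 to 9 with RNY1+/+ ProteinFx, 7 to 8 with RNY1-/- EVFx and 5 to 7 with RNY1-/- ProteinFx when each library was left out. With library totals these counts were 7, 6, 7 and 5. RNY1+/+ ProteinFx had 7 scaled to Rab14, Arpc2 and Cltc or with length and GC trends removed, and RNY1-/- ProteinFx had 8 without its replicates 1 and 2 and 5 without 3 and 4. Between genotypes in EVFx the count of 0 became 3 with no limit on the fold change, 1 with library totals and 0 to 1 without each library. In ProteinFx it became 2 with no such limit and 1 without RNY1-/- ProteinFx replicates 1 and 2. Between the fractions it became 7 with no such limit and 1 with length and GC trends removed, with or without the replicate block. The interaction's 4 became 1 with library totals, 2 with no filter, 2 with length and GC trends removed, with or without the block, 0 without RNY1-/- ProteinFx replicates 1 and 2, and 2 to 5 without each library. Without RNY1-/- ProteinFx replicates 1 and 2, 350 of all 10405 genes tested passed, where 3449 of 10443 did in the main fit.

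The replicate block, which stands for a shared number only, gave 8, 9, 7, 6, 0, 0, 0 and 4 calls and changed none of these counts. By adjusted p it ended Parp12 (0.072) and Parp14 (0.0889) between genotypes in ProteinFx, and it brought Dtx3l (0.0166) and Parp14 (0.0153) past it in EVFx. Values that turned direction had adjusted p over 0.05 before and after. For Parp3 with RNY1+/+ EVFx it was -0.038 with library totals. Parp10 with RNY1-/- ProteinFx was -0.662 without replicates 1 and 2 of that group and -0.06 to 0.393 without each library. Zc3hav1 between fractions was -0.055 scaled to Rab14, Arpc2 and Cltc, -0.009 with no filter, -0.164 with length and GC trends removed and -0.166 with the block as well. In the interaction, Parp11 was 0.041 with library totals, 0.011 with length and GC trends removed, 0.007 with the block as well, and -0.25 to 0.0 without each library. Parp10 was -0.408, -0.419 with the block as well, -0.745 without RNY1-/- ProteinFx replicates 1 and 2, and -0.071 to 0.378 without each library, and Parp14 was 0.066 and, with the block, 0.056 when the trends were removed. The cause of these changes was not tested. Library totals moved the median log2 fold change of all genes to -0.208, -0.197 and -0.271 against PBS for RNY1+/+ EVFx, RNY1+/+ ProteinFx and RNY1-/- EVFx. Depth limits Parp10 most, with as few as 10 counts in a library.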
